A study of Mus musculus with 4 samples.

Results

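The genes described here encode the motors that walk along microtubules and the chains and cofactors that belong to them: the kinesins (symbols starting with Kif), the kinesin light chains Klc1, Klc2, Klc3 and Klc4, and cytoplasmic dynein with its cofactor dynactin (symbols starting with Dync1, Dynlt, Dynlr or Dctn). They were chosen by symbol alone. This gave 60 of the 15409 gene rows, of which 42 were kinesin or kinesin light chain genes and 18 were dynein or dynactin genes. In all, 54 of the 60 had a mean of at least 1 CPM (the reads of a gene scaled to a common library total) and were tested together with 13912 genes. Those below the limit were Kif2c, Kif4, Kif7, Kif15, Kif20b and Kif24.

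RNA came from the septum, a region in the middle of the forebrain, of TCRb-/- mice, which lack the gene for the T cell receptor's beta chain, and of wild-type (WT) mice. Mice of both genotypes went through 30 min of restraint on each of 3 days and were killed 1.5 h later, so no unstressed group was compared. Each genotype had 2 libraries, every library was a pool of septa from 4 to 5 mice, and the labels place replicate 1 of each genotype in experiment 1 and replicate 2 in experiment 2. The labels name no strain background, age or sex, and the RNA came from cleared lysate after the nuclei had been spun down.

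Most kinesins carry cargo towards the growing end of a microtubule, which in an axon points away from the cell body, and cytoplasmic dynein carries cargo back. A neuron depends on both because most of its proteins and organelles are made in the cell body and used far from it. Other kinesins build the mitotic spindle of dividing cells or serve cilia, and dynactin is the complex that lets dynein hold its cargo and move over long distances.

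Library totals were between 19988137 and 26210790 reads. Trbc2, a constant segment of the deleted receptor chain, had 0 reads in both TCRb-/- libraries and 169 and 86 reads in the WT libraries. The libraries differed more by experiment than by genotype: the first principal component held 76.7% of the variance and separated experiment 1 from experiment 2. Of 15 septal marker genes, 14 were listed, and their summed level was between 1775 and 2044 CPM in the 4 libraries. Drd3 was not listed. Gad1 and Gad2 had the highest levels on the list, at 644 and 501 CPM in TCRb-/- replicate 1. Of the 14, 3 (Nts, Zic1 and Zic4) rose in experiment 2 in limma and none fell, beside 8.95% and 14.7% of all genes. The sums for markers of neighbouring regions varied more. Striatal markers summed to 5587 and 1349 CPM in TCRb-/- replicates 1 and 2 and to 4991 and 3014 CPM in WT replicates 1 and 2, and all 12 of them were lowest in TCRb-/- replicate 2. Choroid plexus markers summed to 2161, 6919, 1321 and 4207 CPM in the same order, thalamic markers to 742, 1721, 721 and 1194 CPM, and markers of cortex and hippocampus to 340, 123, 390 and 135 CPM. The 10 markers shared by all neurons summed to 7031, 7322, 7753 and 7384 CPM, but 2 of them (Stmn2 and Tubb3) rose and 3 (Map2, Rbfox3 and Syt1) fell in experiment 2 in limma. The part of these region markers in the motor gene results was not tested.

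The order of expression among the motor genes was compared per length, as CPM divided by the kilobases of all annotated exons of the gene merged. Merging counts every annotated exon, so a gene with a long, rarely used exon is given too low a level. The small dynein chain Dynlrb1 was highest at 520 ± 66.9 CPM per kb (SD over all 4 libraries), followed by the dynactin subunit Dctn3 at 329 ± 35.6 CPM per kb and the kinesin light chain Klc1 at 254 ± 13.1 CPM per kb. The dynein light chain Dynlt3 came next at 152 ± 8.34 CPM per kb. The neuronal kinesins Kifc2 and Kif5a followed at 105 ± 14.8 and 102 ± 35.7 CPM per kb, and their order changed with the experiment. Kif5a was the higher in experiment 1, at 142 against 125 CPM per kb in TCRb-/- and 121 against 107 in WT. Kifc2 was the higher in experiment 2, at 96.4 against 64.7 CPM per kb in TCRb-/- and 91.1 against 80.4 in WT. Dync1h1, the heavy chain that holds the dynein motor itself, stood at rank 33 with 2.80 ± 0.577 CPM per kb, and the spindle kinesin Kif15 was lowest at 0.0546 CPM per kb.

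**Figure D1:**
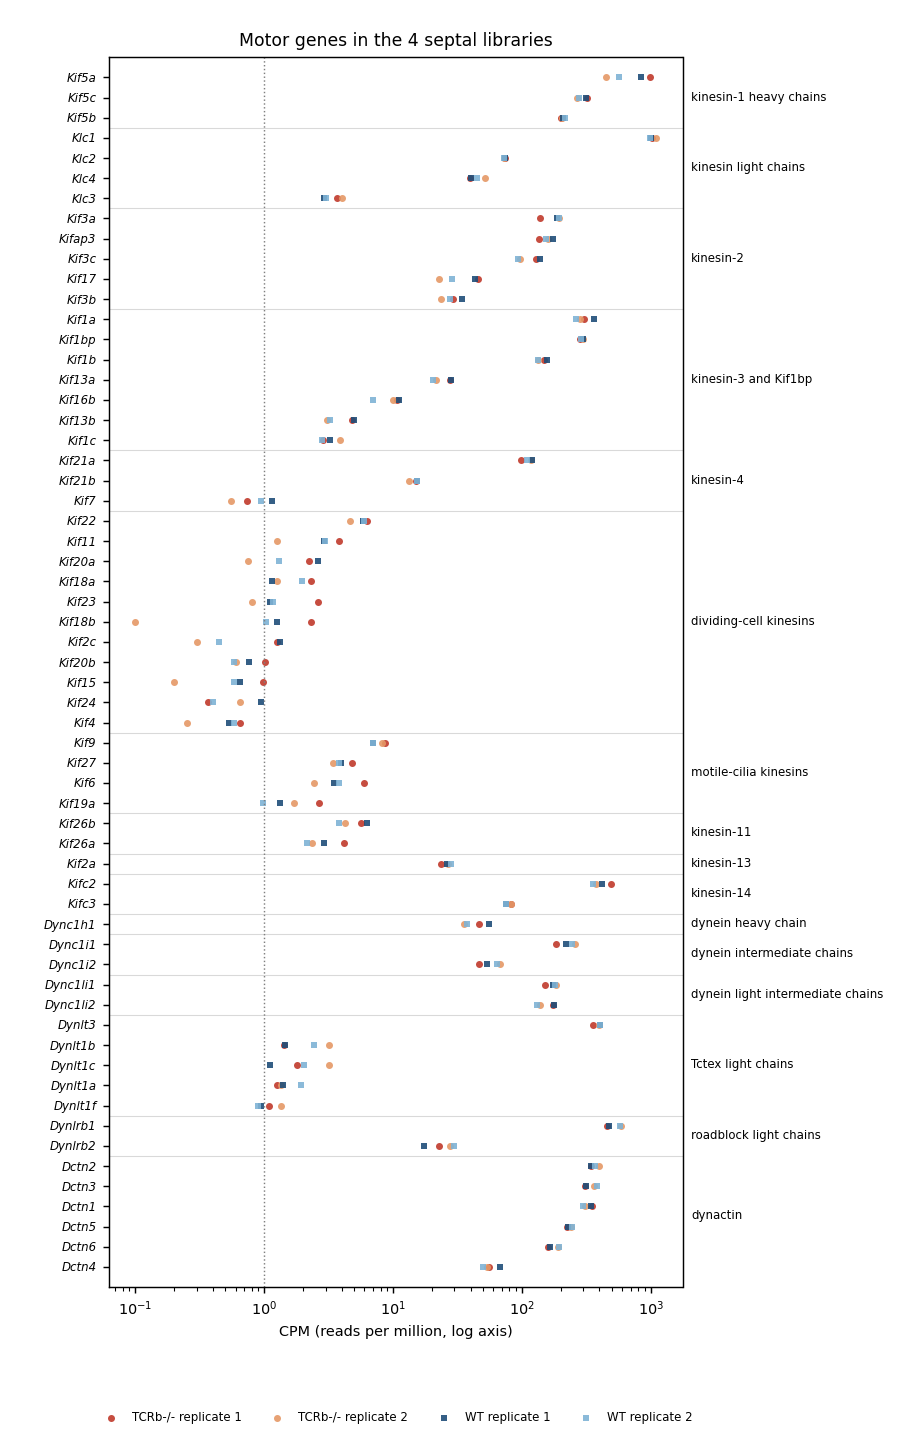
Level of each motor gene in each library, in CPM on a log axis, with genes grouped by role and 1 point per library. Cargo kinesins, light chains, dynein and dynactin lie mostly above 10 CPM, while the kinesins of dividing cells and cilia lie mostly below it.

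The first question was whether the motor genes differed between TCRb-/- and WT septum. Values were compared as log2(CPM + 1), with limma's moderated test over all genes tested and Benjamini-Hochberg adjustment, so a difference is on the log2(CPM + 1) scale and understates the change of genes with low values. No motor gene passed an adjusted p of 0.05 and none of the 54 passed an unadjusted p of 0.05 in limma, beside 0% and 0.309% of all genes tested. That fit counts the gap between the experiments as error, and even Trbc2 did not pass it after adjustment. A motor gene that did not pass may therefore still differ. Trbc2 passed once the experiment was a block (limma, adjusted p = 0.0323). With the experiment as a block, again none of the 54 passed after adjustment in limma (0.0144% of all genes did), and 2 of them, or 3.70%, passed the unadjusted threshold, beside 5.64% of all genes. Those were Kif19a and Kif3b. The median difference over the motor genes was -0.03 and that over all genes was 0.00.

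Kif19a, a kinesin that shortens microtubules at the tips of motile cilia, had the largest genotype difference of the 54. It had 65 and 34 reads in TCRb-/- replicates 1 and 2, which is 2.64 and 1.70 CPM, and 35 and 22 reads in the WT replicates, which is 1.34 and 0.984 CPM. Both TCRb-/- pools were above both WT pools. The log2 difference was 0.54 with a standard error of 0.25 (limma, unadjusted p = 0.0777, adjusted p = 1.00), and with the experiment as a block the limma values were an unadjusted p of 0.0290 and an adjusted p of 0.848. The summed level of markers of ependymal cells, which carry motile cilia, was also higher in the TCRb-/- pool of each experiment. The part of these markers in the Kif19a difference was not tested. Kif3b, the partner of Kif3a in the kinesin-2 motor, had 29.2 and 23.6 CPM in the TCRb-/- replicates and 34.4 and 27.5 CPM in the WT replicates. Its groups overlapped, although the TCRb-/- pool was the lower of the pair in each experiment, with a log2 difference of -0.22 and a standard error of 0.19 (limma, unadjusted p = 0.288). With the experiment as a block the standard error was 0.09 (limma, unadjusted p = 0.0455, adjusted p = 0.848).

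The share of motor genes whose genotypes did not overlap was close to that over all genes. Both TCRb-/- values lay above both WT values for 6 of 54 genes (11.1%, beside 9.76% of all genes) and below them for 4 (7.41%, beside 8.04% of all genes). The first were Dynlt1f, Kif19a, Kif9, Kifc3, Klc1 and Klc3, and the second were Dynlt1a, Dynlt3, Kif5b and Kif21b. Apart from Kif19a, the largest difference among those genes was that of Klc3, a light chain best known from testis, with 3.66 and 4.00 CPM in TCRb-/- and 2.90 and 3.00 CPM in WT. Of its merged exon bases, 28.1% are overlapped by Ercc2, so some reads of this pair may not be told apart. Kifc3, a minus-end kinesin of epithelial cells, stood at 82.2 and 82.6 CPM in TCRb-/- and at 75.7 and 75.4 CPM in WT, so that its pools of 1 genotype lay close together. Klc1, the main neuronal light chain, had 1029 and 1107 CPM in TCRb-/- and 1011 and 981 CPM in WT.

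In 31 of 54 motor genes (57.4%, beside 48.4% of all genes) the genotype difference changed sign between the experiments, and in 6 (11.1%, beside 4.52% of all genes) it was at least 0.2 in size on either side. It was higher in TCRb-/- in both experiments for 10 genes (18.5%, beside 27.0% of all genes) and lower in both for 13 (24.1%, beside 24.5%). An exact permutation test of 2 pools against 2 cannot give a p below 0.333, whereas limma shares its estimate of the spread over all genes. The tests measure only the spread between pools, since the labels do not give values for single animals.

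**Figure D2:**
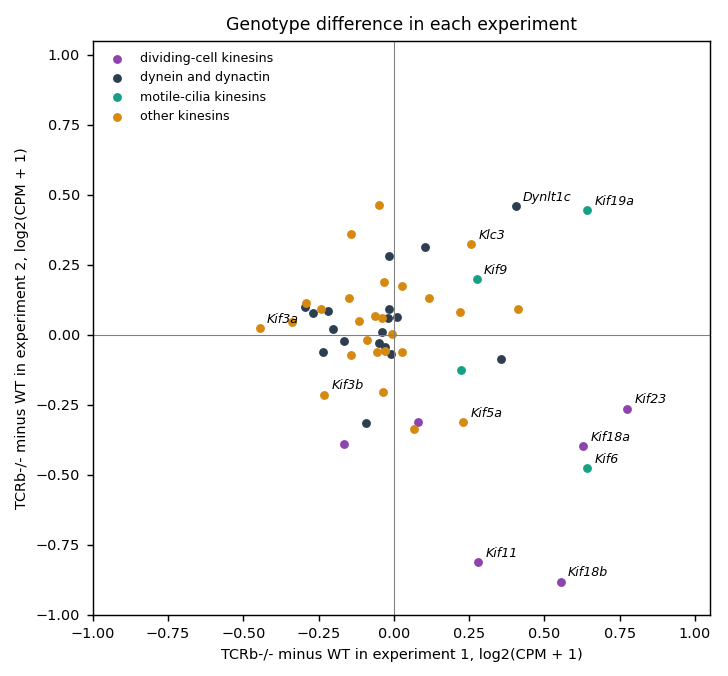
TCRb-/- minus WT difference of each tested motor gene in log2(CPM + 1), with 1 point per gene. The horizontal axis gives the difference in experiment 1 and the vertical axis that in experiment 2. For 31 of 54 tested genes the differences have opposite signs, and Kif19a lies above 0 on both axes.

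The second comparison was between the experiments, which each hold 1 pool of either genotype, so here a group is 1 TCRb-/- and 1 WT pool. Of the motor genes, 17 of 54 (31.5%) passed an adjusted p of 0.05 in limma, beside 23.7% of all genes tested, and 26 (48.1%) passed the unadjusted threshold, beside 39.2%. With genotype as a second term in the limma fit, 18 (33.3%) passed, beside 24.7% of all genes: Kif1a and Kif3b newly passed (adjusted p = 0.0482 and 0.0496) and Kif13b no longer did. Both pools of experiment 2 lay above both pools of experiment 1 for 14 motor genes (25.9%, beside 30.1% of all genes) and below them for 21 (38.9%, beside 37.2%). The direction split by motor type. Of the 36 kinesin and light chain genes tested, 8 fell in experiment 2 and none rose, with a median difference of -0.22. Among the 18 dynein and dynactin genes, 7 rose and 2 fell, with a median of 0.16. Over all genes, 8.95% rose and 14.7% fell, with a median of -0.03. The labels give no reason why the experiments differ.

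These counts moved with the libraries and the scaling. Leaving out 1 library at a time gave between 8 and 16 motor genes past the threshold, with 8 when TCRb-/- replicate 1 was left out and 9 when WT replicate 1 was. In all 4 of those fits Kif5a, Kif17, Kif3c, Dync1li2 and Dynlrb1 passed. Without a trend of the variance on the level, limma called 2 motor genes, Kif5a and Kif13b, and 629 genes in all. Rises made up 41.2% of the motor gene calls, 53.3% with median-of-ratios scaling and 44.4% with quantile scaling, beside 37.8%, 46.7% and 50.6% over all genes. Of the 17 genes, 14 also passed under both of those scalings, and Kif5c, Kif13b and Kifc2 did not.

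**Figure D3:**
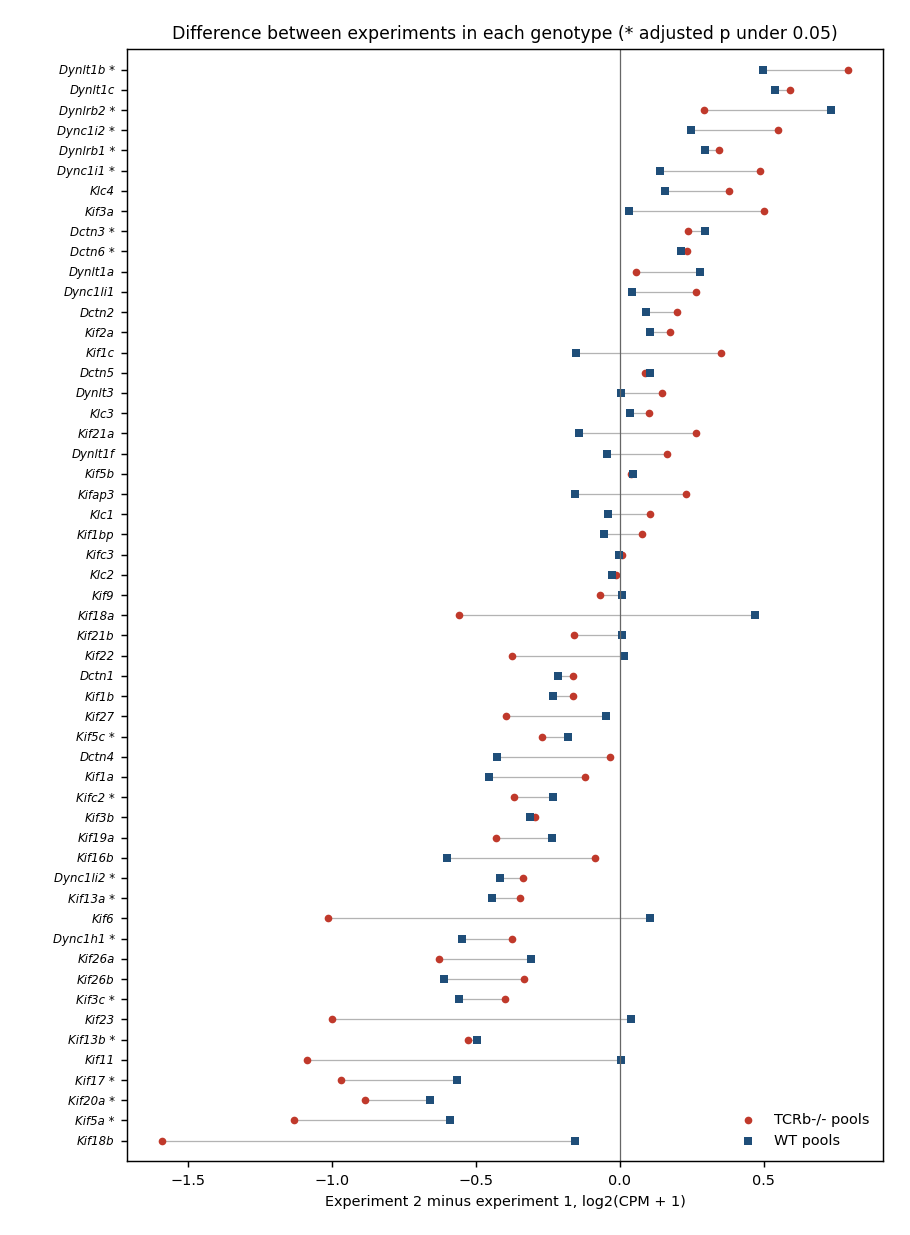
Experiment 2 minus experiment 1 difference of each tested motor gene in log2(CPM + 1), shown for TCRb-/- and for WT pools. Genes are ordered by their log2 difference between the experiments. The kinesins that passed the limma test all lie below 0 in both genotypes, and most dynein and dynactin genes that passed lie above 0.

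Kinesin-1, the main motor of fast axonal transport, has a heavy chain from Kif5a, Kif5b or Kif5c. Kif5a and Kif5c are made mainly in neurons and Kif5b in most cells. Kif5a stood at 993 CPM in TCRb-/- replicate 1, at 452 CPM in TCRb-/- replicate 2, at 846 CPM in WT replicate 1 and at 562 CPM in WT replicate 2. Both pools of experiment 1 were above both pools of experiment 2, with means of 920 ± 104 and 507 ± 77.8 CPM (SD, n = 2). The log2 difference was -0.86 with a standard error of 0.12 (limma, adjusted p = 0.00573), the largest fall in CPM of any motor gene. In a bulk sample, fewer cells of a type and less RNA per cell cannot be told apart. The libraries low in Kif5a were also those low in striatal markers, and the part of those markers in this result was not tested.

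Kif5c fell less, from 322 and 316 CPM in experiment 1 to 267 and 279 CPM in experiment 2 (TCRb-/- before WT). The log2 difference was -0.23 with a standard error of 0.06 (limma, adjusted p = 0.0355), and it missed the threshold with median-of-ratios scaling (limma, adjusted p = 0.0562). Kif5b had 201 and 206 CPM in the TCRb-/- pools and 209 and 216 CPM in the WT pools, with no gap between the experiments. Of the summed kinesin-1 heavy chain level per kb, Kif5a held 66.9% and 63.2% in the TCRb-/- and WT pools of experiment 1 and 50.6% and 54.9% in those of experiment 2. The share of Kif5b went from 11.8% and 13.7% to 20.2% and 18.4% in the same order, so both pools of experiment 2 were above those of experiment 1.

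The light chains, which link kinesin-1 to many of its cargoes, did not follow the heavy chains. Klc1 held between 86.5% and 87.6% of the summed light chain level per kb in every library. Klc2 was the steadiest motor gene, at 74.0 and 73.2 CPM in TCRb-/- and 74.4 and 73.0 CPM in WT. None of the 4 light chain genes passed the test between experiments. The nearest was Klc4, with 39.3 and 40.1 CPM in experiment 1 and 51.3 and 44.9 CPM in experiment 2 (limma, adjusted p = 0.0671).

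**Figure D4:**
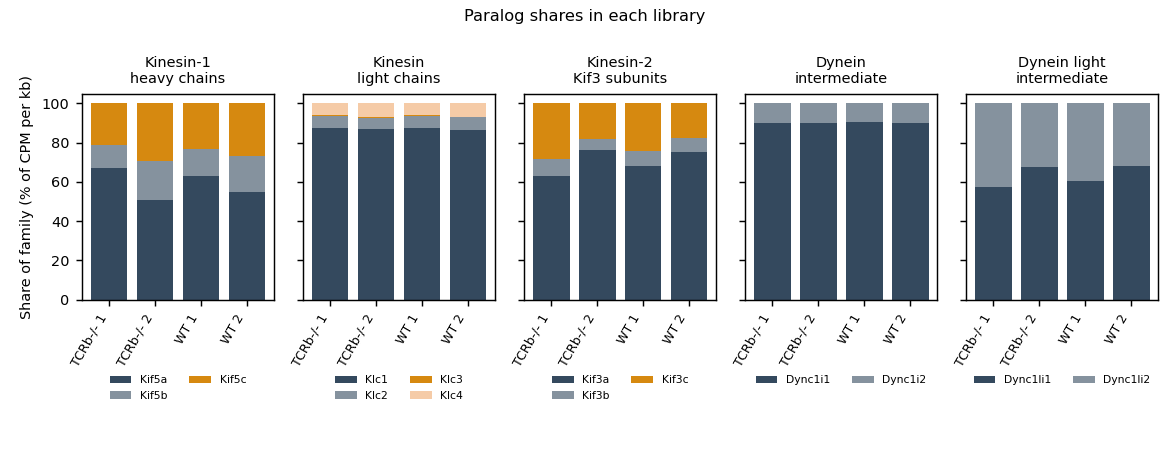
Share in percent of the summed CPM per kb held by each gene of a family in each library, for the kinesin-1 heavy chains, the kinesin light chains, the kinesin-2 chains, and the dynein intermediate and light intermediate chains. Kif5a takes a smaller share in both experiment 2 libraries, and the Klc1 share stays between 86.5% and 87.6%.

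Kinesin-2 moves cargo into cilia and along axons as Kif3a paired with Kif3b or Kif3c and bound to Kifap3, while Kif17 works as a pair of identical chains and carries NMDA receptors into dendrites. Kif3c, the partner found mainly in neurons, had 128 and 138 CPM in experiment 1 and 96.7 and 93.5 CPM in experiment 2 (TCRb-/- before WT). It fell by 0.48 on the log2 scale with a standard error of 0.07 (limma, adjusted p = 0.00663). However, 40.7% of its merged exon bases are overlapped by the genes 1110002L01Rik and Gm48512, and the labels do not say whether counting used strand, so reads of these genes may not be told apart. Kif17 had 45.4 and 43.3 CPM in experiment 1 and 22.7 and 28.9 CPM in experiment 2. Its pools did not overlap, and it fell by 0.77 with a standard error of 0.12 (limma, adjusted p = 0.00757).

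Kif3a, the chain shared by both pairs, went the other way without passing the test. It had 138 CPM in TCRb-/- replicate 1 and 196, 188 and 193 CPM in TCRb-/- replicate 2 and WT replicates 1 and 2, so 1 library stood below the other three (limma, adjusted p = 0.166 between experiments). Kif3c therefore held 28.3% and 24.2% of the summed Kif3a, Kif3b and Kif3c level per kb in experiment 1 and 18.2% and 17.7% in experiment 2. Kifap3, the cargo adaptor of the motor, had 137 and 160 CPM in TCRb-/- and 173 and 155 CPM in WT, with overlapping groups in both comparisons.

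Kinesin-3 motors carry synaptic vesicle precursors, mitochondria and endosomes. Of the 7 genes tested with this family, 2 fell and none rose, beside 14.7% and 8.95% of all genes. Kif13a, which moves endosomal vesicles, had 27.6 and 28.3 CPM in experiment 1 and 21.5 and 20.6 CPM in experiment 2 (TCRb-/- before WT). Its log2 difference was -0.40 with a standard error of 0.10 (limma, adjusted p = 0.0235). The related Kif13b went from 4.84 and 4.96 CPM to 3.05 and 3.22 CPM, a log2 difference of -0.51 with a standard error of 0.16 (limma, adjusted p = 0.0491). Kif13b missed the threshold in limma with median-of-ratios scaling (adjusted p = 0.0565), with quantile scaling (adjusted p = 0.0739) and with genotype as a second term (adjusted p = 0.0578). The pools of either gene stayed apart by experiment and lay close together within one. Kif1a, the main motor for synaptic vesicle precursors, missed the threshold at an adjusted p of 0.0501 in limma. Its values were 305 and 361 CPM in experiment 1 and 280 and 263 CPM in experiment 2. Kif1b, which carries mitochondria and synaptic vesicle precursors, had 148 and 158 CPM and then 132 and 134 CPM (limma, adjusted p = 0.0627). Kif1bp, a protein that binds several kinesins and is not a motor itself, stayed between 284 and 299 CPM. Kif16b and Kif1c stood between 6.98 and 11.1 CPM and between 2.82 and 3.90 CPM.

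Kifc2, a kinesin of neurons related to minus-end motors, had 490 and 421 CPM in experiment 1 and 379 and 358 CPM in experiment 2 (TCRb-/- before WT). Its pools did not overlap by experiment, and it fell by 0.30 with a standard error of 0.08 (limma, adjusted p = 0.0382), missing the threshold with median-of-ratios scaling (limma, adjusted p = 0.0509). Kif21a and Kif21b, kinesin-4 motors that act on microtubule growth in axons and dendrites, did not pass. Kif21a ranged from 97.9 to 120 CPM and Kif21b from 13.3 to 15.5 CPM. Kif7, a kinesin-4 member of Hedgehog signalling in the primary cilium, was below the limit for testing with 0.550 to 1.14 CPM. Kif2a, a kinesin that takes microtubules apart, had 23.6 and 26.2 CPM in experiment 1 and 26.7 and 28.2 CPM in experiment 2 and also did not pass. Kif26a and Kif26b, kinesin-11 members that lack motor activity, were near the limit of the low genes with 2.15 to 4.19 CPM and 3.80 to 6.33 CPM.

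The motor of cytoplasmic dynein is a pair of Dync1h1 heavy chains. Dync1h1 had 46.8 and 55.3 CPM in experiment 1 and 35.8 and 37.5 CPM in experiment 2 (TCRb-/- before WT). It fell by 0.46 with a standard error of 0.10 (limma, adjusted p = 0.0165), and its pools did not overlap by experiment. The intermediate chains Dync1i1 and Dync1i2, which bind dynactin, rose instead. Dync1i1, the neuronal form, had 183 and 221 CPM and then 257 and 244 CPM, a log2 difference of 0.31 with a standard error of 0.09 (limma, adjusted p = 0.0458). Dync1i2, the form of most cells, had 46.2 and 53.9 CPM and then 68.0 and 64.1 CPM, a log2 difference of 0.40 with a standard error of 0.09 (limma, adjusted p = 0.0218). Within one dynein complex the heavy chain and the intermediate chains thus had opposite differences between the experiments.

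The light intermediate chains, which bind the cargo adaptors, also parted. Dync1li2 had 174 and 176 CPM in experiment 1 and 138 and 132 CPM in experiment 2, a log2 difference of -0.38 with a standard error of 0.06 (limma, adjusted p = 0.00860). Dync1li1 had 152 and 175 CPM and then 183 and 180 CPM, and did not pass (limma, adjusted p = 0.193). Dync1li1 held 57.6% and 60.7% of the summed level per kb of the pair in experiment 1 and 67.4% and 68.0% in experiment 2. The shares differed by experiment and lay close together for the genotypes within one.

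The roadblock light chains hold the intermediate chains together, and both rose. Dynlrb1 had 460 and 472 CPM in experiment 1 and 585 and 581 CPM in experiment 2, a log2 difference of 0.32 with a standard error of 0.06 (limma, adjusted p = 0.0123). Dynlrb2, the form known from ciliated cells, had 22.6 and 17.4 CPM and then 27.9 and 29.7 CPM, a log2 difference of 0.51 with a standard error of 0.13 (limma, adjusted p = 0.0293). Ependymal cells, which line the ventricles beside the septum, carry motile cilia. Their markers, a list on which Dynlrb2 itself stands, summed to 213 and 170 CPM in experiment 1 and to 262 and 239 CPM in experiment 2. Of the 12 markers tested, 4 rose in limma (Dynlrb2, Fam183b, Rsph1 and Tekt1) and none fell, beside 8.95% and 14.7% of all genes. Foxj1 and Ak7 had log2 differences of 0.07 each, Dnah5 of -0.08 and Dnah9 of -0.36, and did not pass. The part of these markers in the rise of Dynlrb2 was not tested.

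The Tctex light chains also bind the intermediate chains. Dynlt3 had 359 and 398 CPM in TCRb-/- and 404 and 404 CPM in WT. Its level cannot be ranked against that of the other form, whose reads may have gone uncounted where its copies match. The other form has 4 near-identical copies on chromosome 17 of the mouse, shown here because their reads can hardly be told apart. The first 60 coding bases of each copy lie in exons 1 and 2 of 5 and span an intron in the genome (GRCm38, which is mm10, GENCODE annotation). The capital marks the single base that differs among the copies over their 339 coding bases.
Dynlt1a, chr17:6314926-6317400, minus strand: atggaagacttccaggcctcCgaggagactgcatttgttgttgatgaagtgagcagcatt
Dynlt1b, chr17:6430212-6431912, plus strand: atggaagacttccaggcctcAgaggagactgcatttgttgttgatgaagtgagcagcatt
Dynlt1c, chr17:6601810-6603519, plus strand: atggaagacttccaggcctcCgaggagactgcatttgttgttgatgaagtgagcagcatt
Dynlt1f, chr17:6653320-6655800, minus strand: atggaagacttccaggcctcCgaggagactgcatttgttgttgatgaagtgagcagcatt

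Counted from 1 at the start codon, the difference between Dynlt1a and Dynlt1b is C21A, and Dynlt1a, Dynlt1c and Dynlt1f have the same coding sequence. Of all 50-base windows of their transcripts, 70.5%, 83.2%, 88.9% and 88.6% for Dynlt1a, Dynlt1b, Dynlt1c and Dynlt1f were also found in another gene. The counts of single copies, and their total, are therefore uncertain. Dynlt1b had 1.42 and 1.45 CPM in experiment 1 and 3.20 and 2.46 CPM in experiment 2 (TCRb-/- before WT), a log2 difference of 0.65 with a standard error of 0.19 (limma, adjusted p = 0.0422). Dynlt1c had 1.79 and 1.11 CPM and then 3.20 and 2.06 CPM, and did not pass (limma, adjusted p = 0.114). Dynlt1a and Dynlt1f stayed between 0.895 and 1.92 CPM.

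Of the 6 dynactin genes, 2 rose and none fell, beside 8.95% and 14.7% of all genes. Dctn3, a subunit of the shoulder of dynactin, had 310 and 312 CPM in experiment 1 and 365 and 383 CPM in experiment 2, a log2 difference of 0.27 with a standard error of 0.06 (limma, adjusted p = 0.0217). Dctn6, which caps the pointed end of the dynactin filament, had 161 and 167 CPM and then 189 and 193 CPM, a log2 difference of 0.22 with a standard error of 0.06 (limma, adjusted p = 0.0369). Either gene had pools that lay closer within an experiment than between them. Dctn1, the long subunit that binds microtubules, had 348 and 345 CPM and then 310 and 297 CPM and missed the threshold (limma, adjusted p = 0.0587). Dctn2, also of the shoulder, ranged from 343 to 394 CPM, Dctn5 from 224 to 246 CPM and Dctn4 from 50.4 to 68.1 CPM.

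The difference between the experiments moved with gene length. Across the 54 motor genes Spearman's rho between the log2 difference and the merged exon length was -0.57, and across 13552 genes it was -0.40, given as a description since genes of the same libraries are not independent. Within TCRb-/- pools rho over the motor genes was -0.49 and within WT pools it was -0.53. Of the 9 motor genes under 3 kb, 5 rose and none fell, with a median of 0.27, beside a median of 0.13 over 3800 genes of that length, of which 695 rose and 157 fell. Of the 24 motor genes of 6 kb or more, 1 rose and 7 fell, with a median of -0.32, beside a median of -0.17 over 4390 genes, of which 139 rose and 1104 fell. Of the 7 dynein and dynactin genes that rose, 5 were thus under 3 kb, and of the 10 motor genes that fell, 7 were of 6 kb or more and Kif17, Kif20a and Kifc2 were between these lengths. The part of length in these results was not tested.

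**Figure D5:**
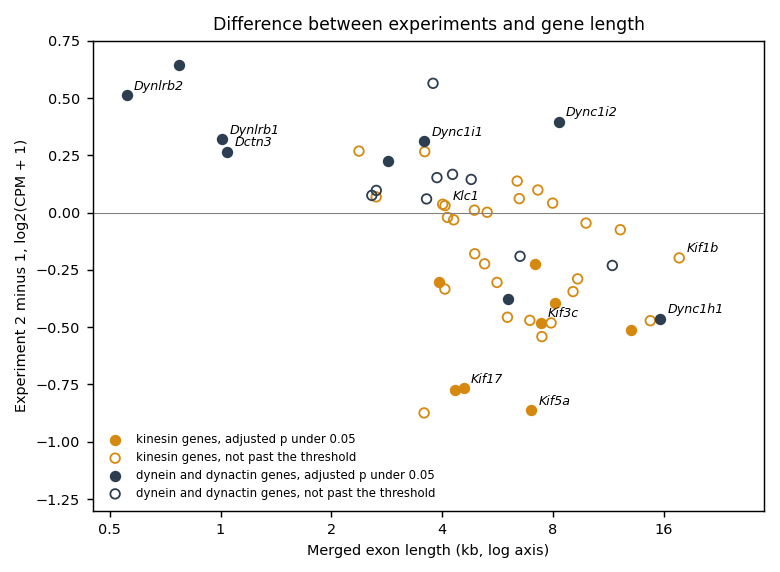
Experiment 2 minus experiment 1 difference in log2(CPM + 1) of each tested motor gene against its merged exon length in kb on a log axis, for kinesins and for dynein and dynactin. Short genes lie mostly above 0 and genes of 6 kb or more mostly below it, with a Spearman's rho of -0.57.

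A further 11 kinesins act in dividing cells, of which 6 were tested. The genes of this group were low in every library: their summed level was 23.8 CPM in TCRb-/- replicate 1, 10.8 CPM in TCRb-/- replicate 2, and 19.2 and 17.0 CPM in the WT replicates, from 585, 215, 503 and 379 reads. TCRb-/- replicate 2 was the lowest library for 8 of the 11, while it was lowest for 31.7% of all genes tested. Other markers of dividing cells summed to 43.1, 16.7, 32.5 and 26.0 CPM in the same order, and all 13 of them were lowest in that library, with none at 0 in any library. Their part in the kinesin values was not tested.

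Kif20a, a kinesin of the last step of cell division, was the single member of the group that passed between experiments. It had 55 and 69 reads in experiment 1, or 2.24 and 2.63 CPM, and 15 and 29 reads in experiment 2, or 0.750 and 1.3 CPM, a log2 difference of -0.77 with a standard error of 0.21 (limma, adjusted p = 0.0338). Of its merged exon bases, 29.3% are overlapped by Cdc23. Kif11, which pushes the spindle poles apart, had 93, 25, 77 and 66 reads in TCRb-/- replicates 1 and 2 and WT replicates 1 and 2. That is 3.78, 1.25, 2.94 and 2.95 CPM, so TCRb-/- replicate 2 stood below the other three, with an exact 95% interval of 0.809 to 1.85 CPM for its own count. Kif18b, which acts on spindle microtubules, had 57, 2, 33 and 23 reads in the same order. Its exact 95% interval was 0.0121 to 0.361 CPM in TCRb-/- replicate 2 and 1.76 to 3.00 CPM in TCRb-/- replicate 1. The intervals cover counting error only, because reads copied by PCR and not tagged with molecular identifiers cannot be counted as separate molecules.

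Kif23, a kinesin of the midzone of the spindle, had 2.60 CPM in TCRb-/- replicate 1 and 0.800, 1.11 and 1.16 CPM in the other libraries, so 1 library was high. Kif18a, which controls chromosome alignment, had 2.32 and 1.25 CPM in TCRb-/- and 1.14 and 1.97 CPM in WT, with overlapping groups. Kif22, which moves chromosome arms, was the highest of the group with 6.26 and 4.60 CPM in TCRb-/- and 5.88 and 5.95 CPM in WT. Among the genes below the limit, Kif2c had 31 and 35 reads in experiment 1 and 6 and 10 reads in experiment 2, and Kif15 had 24 and 17 reads and then 4 and 13 reads. Kif20b, Kif24 and Kif4 lay between 0.25 and 1.0 CPM in every library.

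Because members of this group were low together in the same library, the 250 bases before their start were searched for the letters CCAAT and TTTGAA on both strands. CCAAT is the box bound by the factor NF-Y, and TTTGAA is the core of an element known from genes of cell division, and neither set of letters overlaps the other. Of the 10 genes with an entry among the RefSeq promoters (GRCm38.p6), 6 held CCAAT, beside 33.8% of all 32851 windows of that length, and 4 held TTTGAA, beside 15.99%. A gene was counted if any of its windows held the letters, whereas the shares over all are of single windows. The counts and shares are thus in unlike units, and no excess can be read from them. Kif15 and Kif2c held TTTGAA without CCAAT, and Kif18a and Kif20b held neither. The windows of Kif11, Kif18b, Kif22 and Kif23 follow as examples of genes that held CCAAT, as Kif4 and Kif24 also did. Each is shown in the direction of the gene, with the found letters, or their reverse complement, in capitals.
Kif11, chr19:37376132-37376381, plus strand: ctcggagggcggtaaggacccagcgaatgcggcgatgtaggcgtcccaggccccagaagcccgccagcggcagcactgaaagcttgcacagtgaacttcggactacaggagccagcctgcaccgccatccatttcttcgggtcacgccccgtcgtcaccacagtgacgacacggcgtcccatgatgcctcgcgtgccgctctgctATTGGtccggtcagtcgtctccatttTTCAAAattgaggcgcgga
Kif18b, chr11:102925125-102925374, minus strand: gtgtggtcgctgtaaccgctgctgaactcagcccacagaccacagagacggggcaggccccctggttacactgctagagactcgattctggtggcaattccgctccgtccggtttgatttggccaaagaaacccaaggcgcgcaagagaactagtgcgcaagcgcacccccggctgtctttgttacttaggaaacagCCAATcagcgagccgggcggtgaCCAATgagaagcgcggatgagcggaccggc
Kif22, chr7:127042421-127042670, minus strand: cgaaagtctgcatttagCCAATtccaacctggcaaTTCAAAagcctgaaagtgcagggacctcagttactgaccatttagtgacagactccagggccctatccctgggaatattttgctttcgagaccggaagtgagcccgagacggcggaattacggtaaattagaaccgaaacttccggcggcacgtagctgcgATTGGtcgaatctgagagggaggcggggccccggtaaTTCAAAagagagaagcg
Kif23, chr9:61946800-61947049, minus strand: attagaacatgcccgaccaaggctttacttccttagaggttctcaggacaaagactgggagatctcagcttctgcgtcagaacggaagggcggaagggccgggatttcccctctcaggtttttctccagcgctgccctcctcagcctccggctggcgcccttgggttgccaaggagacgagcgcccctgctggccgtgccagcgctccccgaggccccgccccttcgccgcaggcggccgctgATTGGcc

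Kif22 held 2 matches to each set of letters and Kif11 held 1 to each. Kif18b held 2 matches to CCAAT and none to TTTGAA, and Kif23 held 1 match to CCAAT. A match is a description of letters only.

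The kinesins of motile cilia are Kif6, Kif9, Kif19a and Kif27. None of the 4 passed between experiments. Their summed level was 22.1 CPM in TCRb-/- replicate 1 and 15.8, 15.8 and 15.6 CPM in TCRb-/- replicate 2 and WT replicates 1 and 2. The sum of the ependymal markers given beside Dynlrb2 was higher in both pools of experiment 2, though not every marker was. It was also higher in the TCRb-/- pool of each experiment. By genotype the 12 markers tested had a median log2 difference of 0.26, with Fam183b alone below 0, and none passed in limma. The part of these markers in the values of Kif9 and Kif19a was not tested. Kif6 had 5.98 CPM in TCRb-/- replicate 1 and 2.45, 3.47 and 3.80 CPM in the others, and Kif27 ranged from 3.40 to 4.80 CPM. Kif9 had 8.66 and 8.20 CPM in TCRb-/- and 6.98 and 7.02 CPM in WT, with a log2 difference of 0.24 and a standard error of 0.17 (limma, unadjusted p = 0.220). Its groups did not overlap, but the difference stood close to its error.

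Genes that work with the motors gave the following counts between experiments, and none of them passed by genotype in limma. They stand beside 8.95% of all genes that rose and 14.7% that fell. Of 18 tested kinesin adaptors and cofactors, 6 fell and none rose, among them Trak1 and Trak2, which tie mitochondria to kinesin-1, with log2 differences of -0.55 and -0.76. Of 14 tested dynein regulators and adaptors, 5 fell, among them Bicd2 at -0.63, Nin at -0.92 and Htt at -0.50, and 1 rose, Hap1 at 0.39. None of the 8 genes for the LC8 light chains and the dynactin filament passed. Of 22 genes for tubulins and proteins that bind tubulin or microtubules, 7 rose and 3 fell. Tubb2a at 0.42, Tuba1b at 0.41 and Stmn3 at 0.44 were among those that rose, and Dclk1 at -0.81 among those that fell.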

How the data were processed

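RNA sequencing of septal tissue gave 4 libraries, 2 per genotype, and the labels assign replicates 1 and 2 to experiments 1 and 2. Per the submitters' processing notes, HISAT2 2.1.0, SAMtools 1.3, HTSeq 0.9.1, R 4.0.5, limma 3.46.0 and mm10 were used, with no role or order stated, and the sources used here do not state the gene annotation or the strand setting. The values deposited by the authors were log2 CPM with 0.5 added to the reads and 1 to the library total. Whole reads were recovered from 100% of the deposited log2 values within a tolerance of 0.001 reads. Library totals were 24585868 and 19988137 reads (TCRb-/- replicates 1 and 2) and 26210790 and 22358674 reads (WT replicates 1 and 2), so 3 reads, the limit that a count of 0 allows, were 0.114 to 0.150 CPM. Each file listed 15426 rows, of which 17 were spike-in RNAs and were left out.

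CPM of the library total was transformed to log2(CPM + 1), genes were kept from a mean of 1 CPM upwards, and limma 3.58.1 in R 4.3.3 (empirical Bayes with a trend) was fitted on all 4 libraries, with adjusted p under 0.05 as the threshold. The genotype fit had no block. Deviations from the genotype means correlated at 0.719 between libraries of the same number, and the labels tie the number to an experiment, so the block was fitted as an alternative. Others were the pseudocount, the filter, median-of-ratios and quantile scaling, voom, no trend, and each library left out. A count model was not run: the planned test for log2 values was limma. The fit was tested on simulated data. For the genotype fit those data held no gap between the experiments, so the simulation does not cover the effect of that gap. Merged exons, overlaps and shared 50-base windows came from GENCODE, and promoters from RefSeq, which held 45 of the 60 genes; Python 3.11.15 was used.

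The members and gene lists were chosen with earlier results of these data known. Values are given for genes past a threshold, those with the largest differences, those whose genotypes do not overlap, and main members of each motor class whatever their values; others named were chosen after their values were seen.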

Additional observations from a re-analysis of the deposited data

Results flagged for a closer look

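For 6 of 54 motor genes the TCRb-/- pool was at least 0.2 above the WT pool in log2(CPM + 1) in 1 experiment and at least 0.2 below it in the other, beside 4.52% of all genes tested. The difference between the experiments was not tested for any of them. Every one was higher in TCRb-/- in experiment 1 and lower in experiment 2. The share of all genes with the signs in that order was not counted. For each of these genes TCRb-/- replicate 1 was the highest library, and for all but Kif18a TCRb-/- replicate 2 was the lowest. The shared direction thus rests largely on those libraries.

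Kif5a had a genotype difference of 0.23 in experiment 1 and -0.31 in experiment 2, a change of -0.54. Kif11 went from 0.28 to -0.81, a change of -1.09, and Kif18b from 0.55 to -0.88, a change of -1.44. For Kif18a the differences were 0.63 and -0.40, a change of -1.03. Kif23 had 0.77 and -0.26, a change of -1.04. Kif6, a kinesin of motile cilia, had 0.64 and -0.48, a change of -1.12. Apart from Kif5a these are genes of fewer than 10 CPM, and Kif18b had 2 reads in TCRb-/- replicate 2.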

How the results depend on the processing

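With 2 pools per genotype the tests rest on few libraries, and many motor genes of low level have under 100 reads in a library. By genotype, 405 of 406 values recomputed with all libraries kept their direction and their side of the threshold, and between experiments 294 of 323 did, while 20 no longer passed and 5 newly passed. Over all genes, 2 passed by genotype with the replicate block, Trbc2 and Ttr, and 2 with the block and voom, against 0 without it; no motor gene was among them, so the block changed no call of a motor gene and gave 0. Leaving out 1 library gave 0 to 47 genes by genotype over all genes, with 47 without TCRb-/- replicate 1, and 0 to 0 motor genes. Between experiments, leaving out the trend gave 629 genes and 2 motor genes, and leaving out 1 library gave 1406 to 3390 genes and 8 to 16 motor genes.

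Reversals with all libraries were Klc2 by genotype (0.0054, quantile scaling), and, between experiments, Klc2 (0.011 with median-of-ratios scaling and 0.010 with quantile scaling), Klc1 (-0.013, quantile) and Kif21b (0.021, quantile). Leaving out 1 library reversed the genotype difference of Dctn1 (-0.072 to 0.14), Dctn2 (-0.060 to 0.14), Dync1h1 (-0.42 to 0.12), Dync1i1 (-0.34 to 0.15), Dync1i2 (-0.34 to 0.21), Dync1li1 (-0.22 to 0.041), Dync1li2 (-0.19 to 0.23), Dynlrb1 (-0.19 to 0.16), Dynlrb2 (-0.23 to 0.50), Dynlt1b (-0.26 to 0.53), Kif11 (-0.81 to 0.28), Kif17 (-0.62 to 0.35), Kif18b (-0.96 to 0.63), Kif1a (-0.30 to 0.15), Kif1b (-0.17 to 0.061), Kif20a (-0.72 to 0.16), Kif21a (-0.22 to 0.042), Kif23 (-0.25 to 0.76), Kif26a (-0.064 to 0.57), Kif3a (-0.46 to 0.039), Kif3c (-0.31 to 0.25), Kif5a (-0.61 to 0.53), Kif5c (-0.15 to 0.12) and Klc2 (-0.015 to 0.012). Between experiments it reversed Dynlt1f (-0.096 to 0.22), Dynlt3 (-0.0081 to 0.16), Kif21a (-0.086 to 0.21), Kif21b (-0.18 to 0.027), Kifap3 (-0.13 to 0.21) and Klc1 (-0.056 to 0.12). The cause was not tested. With the filter at 10 CPM the genes below that level had no value.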
